A study of Mus musculus with 32 samples.

Results

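Hmga2 and 4 oncofetal RNA-binding genes, Igf2bp1, Igf2bp2, Igf2bp3 and Lin28b, were followed across mouse epidermis with and without UV exposure. The 5 genes were matched by symbol among the 55401 genes counted in each mouse. Hmga2 was chosen by its measured rise after UV in wild-type mice, and the other 4 for their known links to it, so the wild-type UV values below are a description with no test. The test of UV uses the Ppard-/- mice, whose values were not used to choose Hmga2. Members and gene lists were still chosen with earlier results of these data known, and the fit shares its estimate of spread with the wild-type mice. That test is therefore not fully independent of the choice. The contrasts between genotypes and sexes, and the interactions, include the wild-type mice. For Hmga2 they are therefore not independent of that choice.

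All 32 mice were hairless, of mixed SKH-1/SV129/BL6/J background and 10 to 14 weeks old. The 16 mice labelled WT (+/+) were wild type, and their 16 littermates labelled KO (-/-) were deficient for PPARβ/δ, a nuclear receptor encoded by Ppard. Which exons the PPARD-/- allele lacks is not given in the sources used here. Dorsal skin received a single UV dose of 120 mJ/cm2 and was taken 24 h later, while control mice were sham-handled and taken at 0 h. The 8 groups of sex, genotype and treatment held 4 mice each, so each genotype had 8 control and 8 UV-exposed mice.

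HMGA2 is a chromatin protein that binds the minor groove of AT-rich DNA. It is made in the embryo, is nearly silent in most adult tissues and returns in many tumours. IGF2BP1, IGF2BP2 and IGF2BP3 bind messenger RNAs, among them m6A-modified ones, and affect their stability and translation. LIN28B and its paralog LIN28A block the maturation of let-7 microRNAs, which in turn repress Hmga2, the Igf2bp genes and Lin28b through sites in their 3′ UTRs.

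The let-7 seed and its matches are shown because all 5 members carry them and because they rest on no expression value. The mature let-7 sequences were taken from the RefSeq annotation of GRCm38.p6, with the seed (bases 2 to 8) in capitals. The seed GAGGUAG was common to 10 of the 11 family members in that table, and let-7j carried GAGGUAU. let-7a and let-7j are printed.
mmu-let-7a-5p: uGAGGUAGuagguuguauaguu
mmu-let-7j: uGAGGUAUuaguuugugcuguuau

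The reverse complement of the common seed, CTACCTC, was searched on the transcript strand in the longest annotated 3′ UTR of each gene (GRCm38, sequences from the reference genome). Hmga2 held 4 matches, Igf2bp1 4 and Lin28b 4, while Igf2bp2 and Igf2bp3 held 1 each. At least 1 match was found in 9.18% of the 20659 genes with an annotated 3′ UTR and at least 4 in 0.0581%, that is, 12 genes. The 3′ UTRs of Hmga2 (3014 nt), Igf2bp1 (6337 nt) and Lin28b (4445 nt) were also longer than the median of 989 nt. Capitals mark the match, and a capital A at its end marks the longer match of 8 letters.
Hmga2, chr10:120364224-120364246, minus strand: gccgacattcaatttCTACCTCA
Hmga2, chr10:120362987-120363009, minus strand: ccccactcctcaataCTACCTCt
Hmga2, chr10:120362549-120362571, minus strand: ctgatttgcaaggaaCTACCTCc
Hmga2, chr10:120361691-120361713, minus strand: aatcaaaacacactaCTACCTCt
Igf2bp1, chr11:95961778-95961800, minus strand: gctgtgcgaagtaaaCTACCTCA
Igf2bp1, chr11:95959357-95959379, minus strand: cagcagtgctattaaCTACCTCA
Igf2bp1, chr11:95958763-95958785, minus strand: gtataaatggatgaaCTACCTCA
Igf2bp1, chr11:95958140-95958162, minus strand: acttttggttttaatCTACCTCt
Igf2bp2, chr16:22059473-22059495, minus strand: acacacaaataaaagCTACCTCA
Igf2bp3, chr6:49086787-49086809, minus strand: tgcatttttactcaaCTACCTCA
Lin28b, chr10:45381022-45381044, minus strand: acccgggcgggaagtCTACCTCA
Trim71, chr9:114512472-114512494, minus strand: aacattgcctaagtcCTACCTCA
Of the 4 matches of Hmga2, 1 had 8 letters, against 3 of the 4 in Igf2bp1. The first match of Lin28b and of Trim71, a relative described below with 4 matches of 8 letters, are printed for comparison. A match of letters is a description and not a measured site.

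Libraries held 22919428 to 40653581 reads on genes per mouse (median 27600229), and no 2 files were identical. Reads were still counted on Ppard in the KO mice. Without UV, its level ranged from 70.2 to 88.8 cpm (read counts scaled to library size with TMM factors) in the 8 KO mice and from 87.2 to 104.8 cpm in the 8 WT mice. After UV, it ranged from 174.4 to 238.5 cpm in KO and from 251.9 to 325.6 cpm in WT mice. The KO minus WT difference was -0.26 on the log2 scale without UV (adjusted P value 0.156, edgeR) and -0.42 after UV (adjusted P value 0.00114, edgeR). Counts over a whole gene do not show which exons were read, so they do not test the deletion itself. The 7 keratinocyte markers had a summed level of 24173 to 99376 cpm in every mouse, against at most 106 cpm of 7 dermal fibroblast markers in all mice but the UV-exposed KO female 54F. That mouse had 2185 cpm of fibroblast and 548.2 cpm of myeloid markers, so results that rest on it are also given without it. Keratinocyte marker sums were 60981 to 99376 cpm in KO controls and 24173 to 50434 cpm in UV-exposed KO mice, and 65165 to 73639 and 27956 to 41638 cpm in WT mice. The markers in that sum went both ways. For UV in KO mice without mouse 54F, log2 fold changes were -2.69 for Krt1 and -2.22 for Krt10. Krt14 (2.05), Dsg3 (2.78), Itga6 (1.89) and Trp63 (0.29) rose, and Krt5 was 0.32 (adjusted P value 0.121, edgeR). The lower sum is thus not a fall of every keratinocyte marker. In bulk epidermis, fewer cells of a type and less RNA per cell cannot be told apart. The part of these shifts in the results below was not tested. The level of 4 skeletal muscle markers differed between mice from 0.509 to 2366 cpm, with mice of every genotype and treatment at both ends. Of the 9 mice above 1000 cpm, 38M and 58M were males and the rest were females. The part of muscle RNA in the sex contrasts was not tested.

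Hmga2 went from near absence in control epidermis to a clear signal in every UV-exposed mouse of both genotypes. Hmga2 (ENSMUSG00000056758) lies on chromosome 10 from 120361275 to 120476469 on the minus strand (GRCm38). In KO controls, the 4 males had 2, 0, 0 and 0 reads and the 4 females 1, 0, 1 and 0. In UV-exposed KO mice, the males had 8.40, 10.7, 20.1 and 15.9 cpm and the females 18.2, 8.74, 14.4 and 23.7 cpm. The lowest UV-exposed KO mouse, with 203 reads, stood far above the highest control, with 2 reads, so the groups did not overlap.

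Summed over 8 mice each, 3318 reads after UV stood against 4 without, a ratio of 834 (95% exact interval 326 to 3065, counting error only). Male 34M held 2 of the 4 control reads, and without it the ratio was 1484 (interval 410 to 12255). Hmga2 entered the filtered test only through the UV-exposed mice, since 0 of the 16 controls reached the minimum of 1 cpm, so a difference was built into its selection for that test. Its adjusted P value for UV in KO epidermis was 1.17e-15 (edgeR's quasi-likelihood test over 15546 genes), and 5.04e-17 when no gene was filtered out. At an adjusted P value under 0.05, 70.8% of all genes tested passed in that contrast, 37.3% higher and 33.5% lower, and 18.6% were higher without overlap of the 8 and 8 mice. Fitted alone with the filter, KO males gave an adjusted P value of 1.23e-08 and KO females one of 2.93e-08 (edgeR). Without mouse 54F the adjusted P value was 8.39e-16 (edgeR).

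In WT mice, Hmga2 was likewise near 0 without UV. The 4 control males had 0, 0, 0 and 1 reads and the 4 control females 1, 0, 0 and 0. After UV, WT males had 8.99, 14.8, 18.2 and 11.7 cpm and WT females 10.9, 5.002, 12.0 and 17.5 cpm. Every UV-exposed WT mouse was above every control, as for 21.3% of all genes. The sums were 3004 and 2 reads, a ratio of 1402 (95% exact interval 388 to 11580). It was 2460 without male 43M and 2409 without female 61F, the mice with the 2 control reads. This contrast chose the gene and was not tested. Over all genes, 71% passed in it, 34.5% higher and 36.5% lower.

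After UV, mean Hmga2 levels were 15.03 ± 5.53 cpm in KO and 12.4 ± 4.38 cpm in WT epidermis (SD, n = 8 mice each), and the mice of both genotypes overlapped. The genotype difference after UV was 0.28 on the log2 scale (approximate 95% interval -0.25 to 0.81, adjusted P value 0.608, edgeR). UV-exposed females and males, averaged over genotypes, differed by -0.00 on the log2 scale (interval -0.53 to 0.53, adjusted P value 1.00, edgeR). The interaction of genotype and UV was -0.46 (interval -2.12 to 1.20, adjusted P value 0.813, edgeR), an interval kept wide by controls at 0 to 2 reads. Of all genes, 3.31% passed for genotype after UV (2.69% higher in KO), 3.03% for sex after UV and 0.765% for the interaction (0.251% with a negative sign).

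An antisense gene, 1700006J14Rik, shares 140 bp of exon with Hmga2 on the opposite strand. It had 2 reads in KO controls and 24 in UV-exposed KO mice, and 2 and 14 in WT mice. With 0 to 18 reads per mouse, it was far below Hmga2 in the UV-exposed mice. The strand setting of the read counting is not given in the sources used here.

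**Figure D1:**
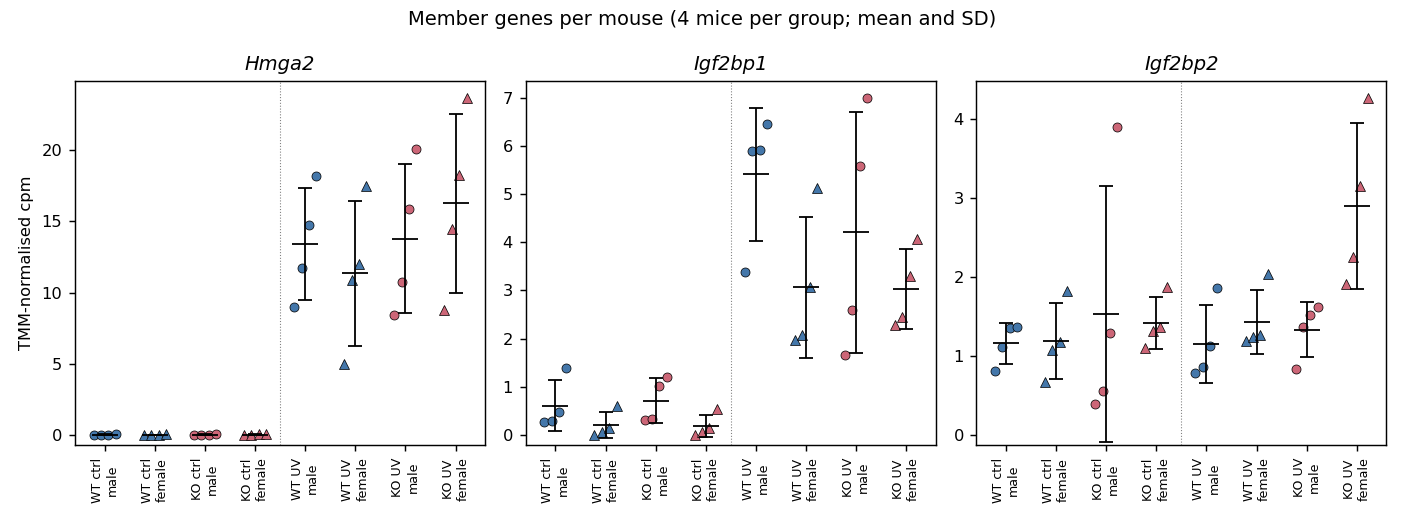
TMM-normalised cpm (y axis, linear) of Hmga2, Igf2bp1 and Igf2bp2 in each of 32 mice by genotype (WT or KO), treatment (ctrl or UV) and sex. Points are mice (4 per group), bars the mean and SD. Hmga2 sits near 0 in all 16 controls and between 5.002 and 23.7 cpm after UV, Igf2bp1 rises from at most 1.39 cpm to between 1.66 and 6.99 cpm, and the groups of Igf2bp2 overlap.

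Igf2bp1, an RNA-binding protein of fetal tissues that is low in most adult organs, also rose after UV, from a low level in controls. Igf2bp1 (ENSMUSG00000013415) lies on chromosome 11 from 95957163 to 96005940 on the minus strand. KO control males had 0.320, 1.20, 0.308 and 1.02 cpm and KO control females 0, 0.530, 0.0639 and 0.142 cpm. UV-exposed KO males had 1.66, 6.99, 5.58 and 2.58 cpm and KO females 4.08, 2.29, 2.46 and 3.29 cpm. The lowest UV-exposed KO mouse, 1.66 cpm, was above the highest KO control, 1.20 cpm, as for 18.6% of all genes.

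The log2 fold change in KO mice was 3.30 (SE 0.56, adjusted P value 7.01e-06, edgeR), where 37.3% of all genes passed as higher. It passed in males alone (log2 fold change 2.56, adjusted P value 0.00155, edgeR) and in females alone (4.02, adjusted P value 0.00201, edgeR). Group sums of 810 and 106 reads gave a ratio of 7.69 (95% exact interval 6.27 to 9.50, counting error only). It was 10.0 without control male 67M and 9.90 without control male 44M, both outside that interval.

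In WT mice, control males had 0.292, 0.258, 1.39 and 0.478 cpm and control females 0.0634, 0.594, 0 and 0.146 cpm. After UV, WT males had 5.92, 3.38, 6.46 and 5.88 cpm and WT females 5.12, 2.08, 1.98 and 3.07 cpm. As in KO mice, the UV-exposed and control mice did not overlap, as for 21.3% of all genes that were higher in WT mice. The sums were 1047 and 88 reads, a ratio of 11.1 (95% exact interval 8.93 to 14.0, counting error only, untested). Without control male 56M it was 16.9, outside that interval.

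Genotypes did not separate for Igf2bp1. After UV it averaged 3.62 ± 1.84 cpm in KO and 4.24 ± 1.82 cpm in WT mice (SD, n = 8 each), and the difference was -0.19 on the log2 scale (interval -1.14 to 0.76, adjusted P value 0.879, edgeR). Without UV the difference was 0.06 (interval -1.10 to 1.22, adjusted P value 0.999, edgeR), where 0.206% of all genes passed. The interaction of genotype and UV was -0.25 (interval -1.74 to 1.24, adjusted P value 0.897, edgeR).

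Igf2bp1 was also compared between the sexes without UV, where the mice overlapped. The 8 control females ranged from 0 to 0.594 cpm (median 0.103) and the 8 control males from 0.258 to 1.39 cpm (median 0.399). The female minus male difference was -1.80 on the log2 scale (SE 0.58, adjusted P value 0.0557, edgeR), with 6.86% of all genes past the threshold in this contrast, which was added after the member values were seen. It missed the threshold here, with no filter (adjusted P value 0.114, edgeR) and in all but 3 of the 32 fits that left out 1 mouse (up to 0.166), and passed with DESeq2 (0.0141) and limma-trend (0.0205). After UV the difference was -0.65 (interval -1.60 to 0.31, adjusted P value 0.487, edgeR). The sex-by-UV interaction was 1.15 (interval -0.31 to 2.60, adjusted P value 0.782, edgeR). With edgeR, 0 genes of all tested passed the sex-by-UV interaction, 1091 had an unadjusted p under 0.05, DESeq2 called 22 and limma-trend 2.

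Igf2bp2, the member of its family most widely made in adult tissues, was present in all 32 mice without a change past the threshold. Igf2bp2 (ENSMUSG00000033581) lies on chromosome 16 from 22059009 to 22163299 on the minus strand. KO control males had 0.559, 3.89, 0.395 and 1.28 cpm and KO control females 1.37, 1.88, 1.31 and 1.10 cpm. UV-exposed KO males had 1.61, 1.51, 0.831 and 1.36 cpm and KO females 3.14, 1.91, 4.26 and 2.25 cpm. The groups overlapped, and control male 44M, at 3.89 cpm, had the second-highest value of all.

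The log2 fold change in KO mice was 0.41 (interval -0.24 to 1.06, adjusted P value 0.272, edgeR). It passed in females fitted alone (1.00, adjusted P value 0.0199, edgeR) and without control male 44M (0.92, adjusted P value 0.00400, edgeR), and was -0.19 (adjusted P value 0.780, edgeR) in males alone. In WT mice, the 8 controls ranged from 0.666 to 1.82 cpm (median 1.14) and the 8 UV-exposed mice from 0.778 to 2.04 cpm (median 1.21), almost the same range.

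After UV, Igf2bp2 did not overlap between the sexes in KO mice, but did in WT mice. The 4 KO females had 1.91 to 4.26 cpm and the 4 KO males 0.831 to 1.61 cpm. UV-exposed WT females had 1.19 to 2.04 cpm and WT males 0.778 to 1.86 cpm. The share of all genes that separate the sexes this way was not counted, so nothing is read from the KO split. The sex difference after UV, averaged over genotypes, was 0.71 on the log2 scale (interval 0.06 to 1.36, adjusted P value 0.221, edgeR), and the genotype difference after UV was 0.61 (interval -0.04 to 1.26, adjusted P value 0.310, edgeR), so neither passed the correction.

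Igf2bp3, the third family member and largely limited to fetal tissues and tumours, was at the limit of detection. Igf2bp3 (ENSMUSG00000029814) lies on chromosome 6 from 49085223 to 49214957 on the minus strand. All 16 UV-exposed mice had 0 reads, which allows a level of up to 0.0134 cpm over the 8 KO and 0.0125 cpm over the 8 WT mice (3 reads per group, counting error only). The 8 WT controls had 8 reads in all, 5 of them in female 63F, and the 8 KO controls had 2. With the 8 WT control reads taken as exact, the level in WT mice was at least 2.86-fold lower after UV. Counting error of those 8 reads is not in that bound. No fold can be given without female 63F, which leaves 3 reads. No fold is given for KO mice, where both groups were at or under 3 reads.

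The 6 mice with any Igf2bp3 read were all controls, 5 of them females, and had skeletal muscle marker sums of 360.7 to 2366 cpm, while the 26 mice without a read ranged from 0.509 to 2116 cpm. The part of muscle RNA in these reads was not tested. The gene shares 1529 bp of exon with Malsu1 on the opposite strand, which had 126 to 324 reads per mouse.

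Lin28b, the let-7 blocker, was not detectable as changed at this depth. Lin28b (ENSMUSG00000063804) lies on chromosome 10 from 45376620 to 45486395 on the minus strand. It had 6 reads over all 32 mice: 1 in KO controls, 2 in UV-exposed KO mice, both in female 54F, 3 in WT controls and 0 in UV-exposed WT mice. No fold is given, since every group was at or under 3 reads. Igf2bp3 and Lin28b did not reach 1 cpm in any mouse, so 3 of the 5 members entered the tests.

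Per kilobase of exon, the order of mean levels in UV-exposed KO mice was Hmga2 (2.22 cpm per kb), Igf2bp1 (0.373) and Igf2bp2 (0.285). In KO controls Igf2bp2 led with 0.199 cpm per kb, followed by Igf2bp1 (0.0463) and Hmga2 (0.00273). Igf2bp1 and Igf2bp2 overlapped in cpm after UV, with 1.66 to 6.99 and 0.831 to 4.26 cpm.

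The genes most like each member over the 32 mice, by Pearson correlation of log2 cpm, are given as a description, over points that all share the split between control and UV. For Hmga2 they were Mark3 (r = 0.986), Tmem51 (r = 0.986) and Clcf1 (r = 0.986). For Igf2bp1 they were Krt16 (r = 0.945), a keratin of stressed epidermis, Klk13 (r = 0.934) and Serpinb6c (r = 0.934). For Igf2bp2 they included Syn2 (r = 0.680) and Ak4 (r = 0.673). Hmga2 and Igf2bp1 correlated with r = 0.815 over all 32 mice but with r = 0.308 over the 16 UV-exposed mice.

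Trim71, an RNA-binding ubiquitin ligase of the embryo and a known let-7 target, fell after UV. In KO mice it ranged from 2.12 to 9.97 cpm (median 6.04) in controls and from 0 to 0.221 cpm (median 0.110) after UV. No UV-exposed mouse overlapped a control, as for 16.6% of all genes that were lower. The log2 fold change was -5.75 (SE 0.53, adjusted P value 1.60e-10, edgeR), and group sums of 1270 and 24 reads gave a level 52.6-fold lower after UV. In WT mice, controls ranged from 1.66 to 7.18 cpm and UV-exposed mice from 0 to 0.291 cpm, a log2 fold change of -4.90. No UV-exposed mouse reached the minimum of 1 cpm, so Trim71 entered the filtered test only through controls. A difference was thus built into its selection for that test.

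Lin28a, the paralog of Lin28b, had 13 reads in UV-exposed KO mice against 1 in KO controls, and 5 against 0 in WT mice. The KO ratio was 13.1 with a wide 95% exact interval of 1.964 to 556, and rests on 1 control read, in female 44F. No fold can be given in WT mice without female 59F, which held 4 of the 5 reads. Of the 7 mice with a Lin28a read, 6 were among the 9 mice with skeletal muscle markers above 1000 cpm. The part of muscle RNA in these reads was not tested.

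Hmga1, the paralog of Hmga2, was lower in KO than in WT epidermis. Without UV, the 8 KO mice ranged from 3.56 to 5.47 cpm (median 5.05) and the 8 WT mice from 8.70 to 16.7 cpm (median 13.0). After UV, KO mice ranged from 5.73 to 11.6 cpm (median 6.90) and WT mice from 11.7 to 18.7 cpm (median 17.1). In both states, the highest KO mouse was below the lowest WT mouse, as for 0.0322% and 0.129% of all genes.

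The genotype difference of Hmga1 was -1.43 on the log2 scale without UV (SE 0.13, adjusted P value 5.02e-07, edgeR, where 0.0579% of all genes passed as lower) and -1.10 after UV (SE 0.13, adjusted P value 1.39e-05, edgeR). Hmga1 lies on chromosome 17, 669 kb from Ppard. It shares 102 bp of exon with AI413582, a protein-coding gene on the opposite strand that had 238 to 714 reads per mouse. The part of that overlap in the Hmga1 counts was not tested. Of the 32 genes that differed between genotypes without UV, 13 lay on chromosome 17, which held 4.88% of the genes tested. The loss of Ppard and sequence of the parental strain linked to the deleted allele cannot be told apart here. UV raised Hmga1 in KO mice by 0.67 on the log2 scale (SE 0.13, adjusted P value 6.23e-05, edgeR).

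**Figure D2:**
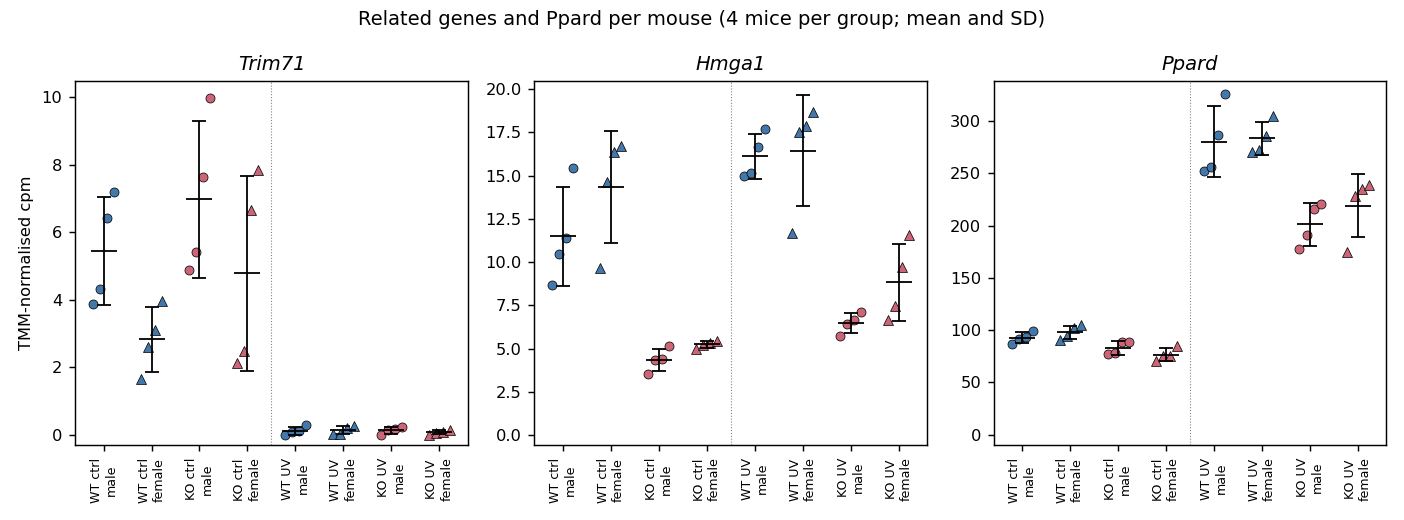
TMM-normalised cpm (y axes, linear) of Trim71, Hmga1 and Ppard in each of 32 mice, by genotype, treatment and sex. Points are mice (4 per group), bars the mean and SD. Trim71 falls to at most 0.291 cpm after UV, and Hmga1 and, after UV, Ppard are lower in every KO mouse than in every WT mouse.

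Igf2, whose messenger gave the IGF2BP family its name, had 11 reads over all 32 mice, 0 to 3 per mouse. H19, its imprinted neighbour and an RNA bound by IGF2BP proteins, ranged from 0 to 199.8 cpm and did not pass for UV in KO mice (log2 fold change 0.51, SE 1.30, adjusted P value 0.738, edgeR). That value was 0.0057 without mouse 54F and ran from -2.78 to 1.83 over all alternatives. Its level followed the skeletal muscle markers (Pearson r = 0.976 and Spearman rho = 0.964 of log2 values over 32 mice). The 9 mice above 1000 cpm of those markers had 22.3 to 199.8 cpm of H19, and the other 23 at most 25.7 cpm. The part of muscle RNA in H19 was not tested.

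**Figure D3:**
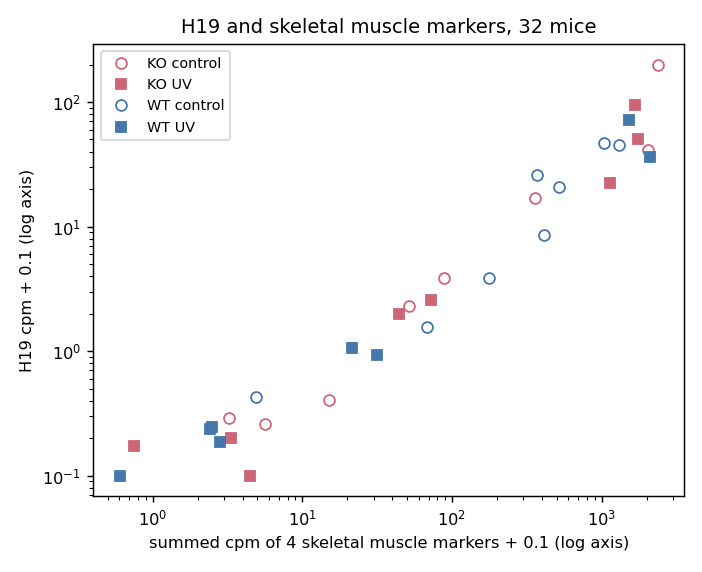
H19 (y axis) against the summed level of Acta1, Ckm, Myh4 and Tnnt3 (x axis), both in cpm + 0.1 on log axes, with 1 point per mouse, open for controls and filled for UV. H19 rises with the muscle markers in control mice (r = 0.972, 16 mice) and in UV-exposed mice (r = 0.979, 16 mice).

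The pathways around the members were described with 7 lists holding 92 different genes, of which 84 were tested and 8 stand in more than 1 list. Counts below are for UV in KO mice and stand against 37.3% of all genes tested that rose, 33.5% that fell and 70.8% that passed either way, so nothing is read as particular to a list. The medians of all genes tested were 0.09 in KO and -0.01 in WT mice on the log2 scale.

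Among 14 tested genes of the let-7 machinery, 2 rose, 6 fell and 6 did not pass (median log2 fold change -0.12 in KO and -0.14 in WT mice). The falls included Trim71, Dis3l2, the exonuclease that degrades let-7 precursors tailed with uridine (-2.52, SE 0.11, adjusted P value 1.43e-16, edgeR), the Argonaute gene Ago1 (-1.38, SE 0.08) and Prkra, a Dicer partner (-0.87, SE 0.10). In WT mice the same genes had values of -2.92, -1.52 and -1.04. Without mouse 54F, 3 rose and 6 fell.

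Of 21 tested let-7 target genes, 14 rose, 4 fell and 3 did not pass (median 0.48 in KO and 0.13 in WT mice). The insulin receptor substrate Irs2 (2.63, SE 0.18) and the ubiquitin-conjugating enzyme Cdc34 (1.09, SE 0.07) rose, and the insulin receptor Insr fell (-1.18, SE 0.10). The list holds known targets and leaves out the members.

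Seed matches were also counted over all tested genes, as a description with no test. Of 1444 tested genes with at least 1 match, 36.8% rose and 37.9% fell, against 37.7% and 34.2% of 12178 genes without a match. Their median log2 fold changes were 0.03 and 0.08. The 11 tested genes with at least 4 matches split into 6 that rose and 5 that fell. Hmga2, which was chosen for its rise in WT mice, Trim6 (4.11), Ptafr (3.40) and Igf2bp1 (3.30) were at the upper end. Trim71 (-5.75) was at the lower end. Mature let-7 was not measured, since libraries were made from polyadenylated RNA and counted per gene.

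**Figure D4:**
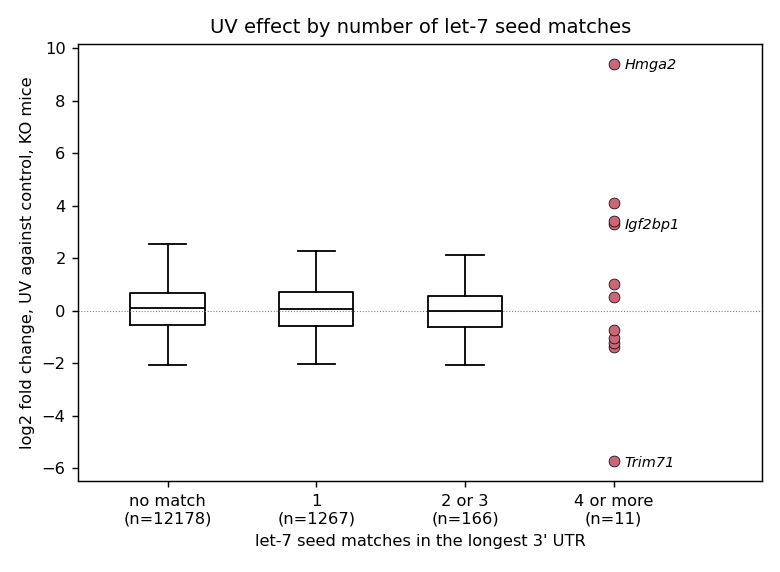
Log2 fold change of UV in KO mice (y axis) by the number of let-7 seed matches in the longest 3′ UTR (x axis). Boxes show the quartiles and median of genes with no, 1, and 2 or 3 matches, whiskers the 5th and 95th percentiles, and points the 11 genes with at least 4. Boxes lie near 0 while the points spread from -5.75 (Trim71) upwards to Hmga2.

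Of 11 tested genes linked to HMGA proteins, 5 rose, 2 fell and 4 did not pass (median 0.31 in KO and -0.74 in WT mice). The cyclin-dependent kinase inhibitor Cdkn2b fell (-1.46, SE 0.17), and the transcription factors Snai2 (0.81, SE 0.15) and Zeb2 (2.84, SE 0.53) rose. Zeb2 was 2.38 without mouse 54F (adjusted P value 0.000133, edgeR). Without that mouse, 5 of 10 tested genes rose and 3 fell, with a median of 0.15.

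In the insulin-like growth factor axis, 3 of 12 tested genes rose, 3 fell and 6 did not pass (median 0.55 in KO and -1.33 in WT mice). Besides Irs2 and Insr, the IGF2-clearing receptor Igf2r rose (0.54, SE 0.08) and the binding protein Igfbp3 fell (-1.41, SE 0.22). Without mouse 54F, which had the highest fibroblast markers, 3 rose and 5 fell and the median was -0.68.

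Of 9 tested transcripts known to be bound by IGF2BP proteins, 4 rose, 1 fell and 4 did not pass (median 0.51 in KO and 0.24 in WT mice). Ptgs2, the inducible cyclooxygenase, rose most (4.64, SE 0.33, adjusted P value 1.25e-12, edgeR), beside the adhesion receptor Cd44 (1.11, SE 0.11). Btrc, a ubiquitin ligase subunit, fell (-1.58, SE 0.15). Without mouse 54F the same counts rose and fell, with a median of 0.05.

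Among 15 writers, erasers and other readers of m6A, 8 rose, 4 fell and 3 did not pass (median 0.28 in KO and 0.26 in WT mice). The eraser Fto fell (-1.58, SE 0.10), as did the methyltransferase Mettl3 (-0.56, SE 0.06), and the readers Hnrnpc (1.19, SE 0.09) and Ythdf1 (0.68, SE 0.07) rose.

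Of 9 tested fetal growth and imprinted genes, 2 rose, 1 fell and 6 did not pass (median 1.37 in KO and 0.03 in WT mice). Mest (2.38, SE 0.36) and the cell-cycle inhibitor Cdkn1c (1.94, SE 0.62) rose and Plagl1 fell (-1.56, SE 0.28), while the imprinted RNA Meg3 had 3.001 (SE 1.44, adjusted P value 0.0644, edgeR), and -1.37 without mouse 54F (adjusted P value 0.355, edgeR). Without that mouse, 6 of the genes were tested, 1 rose (Mest) and 1 fell (Plagl1), with a median of -0.32. Cdkn1c was then not tested, since no other mouse reached 1 cpm.

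**Figure D5:**
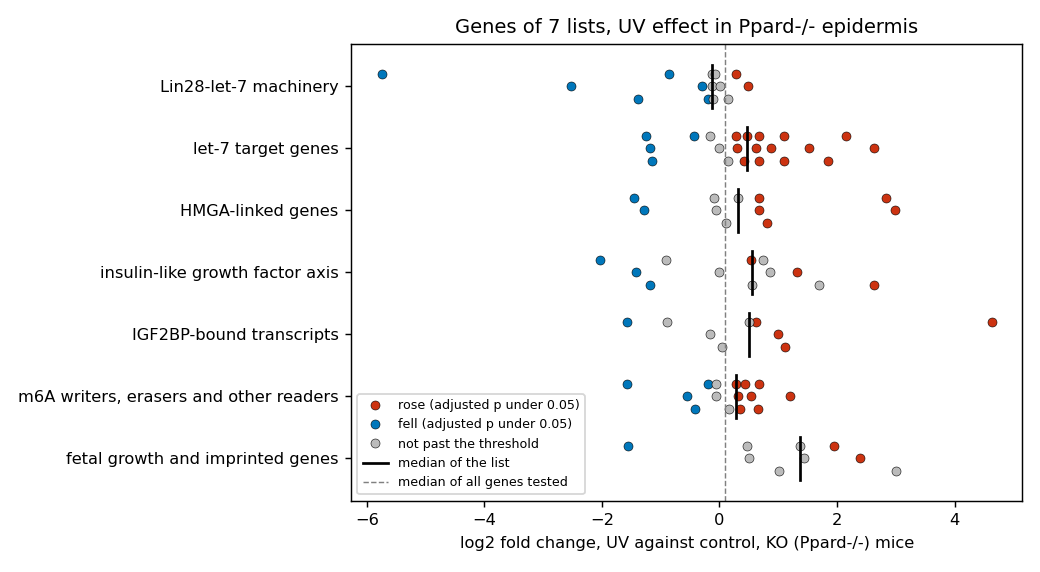
Log2 fold change of UV in KO mice (x axis) for the tested genes of 7 lists (rows), 1 point per gene, red for genes that rose, blue for genes that fell and grey for the rest (adjusted P value under 0.05, edgeR). Black bars are list medians, from -0.12 to 1.37, and the dashed line is the median of all genes tested, 0.09.

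Between genotypes, 1 of the 84 tested list genes, Hmga1, differed without UV (0.206% of all genes) and 10 differed after UV (3.31% of all genes). Without mouse 54F, 2 of them differed after UV, Hmga1 and Btrc. The interaction of genotype and UV passed for 3 list genes (0.765% of all genes), named after their values were seen: the cell-cycle transcription factor E2f1, the cyclin Ccnd2 and Btrc. E2f1 did not pass it without mouse 54F. No member passed it, and 3 of the 5 could be tested.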

How the data were processed

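Epidermal RNA of 32 mice was sequenced from TruSeq stranded mRNA libraries. The authors deposited raw read counts per gene for each mouse, made with cutadapt 1.8, STAR 2.5.3a and HTSeq 0.9.1 on GRCm38 per the submitters' processing notes (the study's methods name a human build). Symbols, coordinates and UTRs came from GENCODE M21, which holds 55141 of the 55401 identifiers. Rows that name no gene (38.5% to 46.0% of reads) were left out.

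Counts were scaled with TMM and fitted with edgeR 4.0.16 (R 4.3.3), 1 mean per group of 4 mice, on the 15546 genes that reached 1 cpm in 1 or more mice. Contrasts averaged the sexes. Benjamini-Hochberg adjustment covered every gene tested (threshold 0.05), and intervals are normal approximations. Scripts were tested on simulated data in which far fewer genes changed than in the UV contrasts here. Changes as broad as those were not simulated. Alternatives were RLE scaling, DESeq2 1.42.0, limma-trend 3.58.1 (prior count 1), 2 other filters, single sexes or genotypes and leaving out each mouse. Ratios used group sums, and their exact intervals hold counting error only, not the spread between mice. A sum of 0 was set to a floor of 3 reads, a sum of 1 to 3 was kept with its exact interval, and no ratio was given where both sums were at or under 3.

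Members and lists were chosen with earlier results of these data known. Named list genes are the 4 with the smallest adjusted P value for UV in KO mice and a mean of at least 10 reads, and 3 like genes per member were named. Ppard, Trim71, Lin28a, Hmga1, Igf2 and H19 were always named. A few genes that this rule names are not reported here.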

Additional observations from a re-analysis of the deposited data

Results flagged for a closer look

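Each group of 4 mice was checked for a mouse far from the other 3, in 53 groups of gene values, and 6 stood out, where chance gives about 1 in 20. Igf2bp2 in UV-exposed WT females was 2.04 cpm in mouse 77F against 1.19 to 1.26 cpm in the others. Hmga1 in the same group was 11.7 cpm in mouse 59F against 17.5 to 18.7 cpm. H19 was 22.3 cpm in UV-exposed KO male 58M against at most 0.0997 cpm, 71.7 cpm in UV-exposed WT female 59F against at most 0.962 cpm, and 36.2 cpm in UV-exposed WT male 38M against at most 0.823 cpm. These 3 mice were among the 9 with skeletal muscle markers above 1000 cpm. Ppard in UV-exposed KO female 54F was 174.4 cpm against 227.9 to 238.5 cpm, and that mouse had 2185 cpm of fibroblast markers.

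The response to UV differed between genotypes for 3 list genes (edgeR's interaction test). E2f1 rose by 0.67 on the log2 scale in KO mice and was -0.40 in WT mice, a difference of 1.08 (adjusted P value 0.0351). Ccnd2 was 0.28 and -0.34, a difference of 0.62 (adjusted P value 0.0254). Btrc was -1.58 and -2.60, a difference of 1.02 (adjusted P value 0.0178). When each of the 32 mice was left out in turn, Btrc passed 32 times, Ccnd2 25 and E2f1 14. Without mouse 54F, Btrc and Ccnd2 passed and E2f1 did not. None of the 3 passed in a single sex or with no filter.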

How the results depend on the processing

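The count of genes past the threshold for UV, 11001 in KO and 11039 in WT mice, stayed within 1.5 times under every alternative, and ran from 10757 to 11076 and from 10803 to 11092 when 1 mouse was left out. Between genotypes without UV, 32 genes passed, with 78 in DESeq2, 5 in males, 2 in females and 20 to 45 without 1 mouse. After UV, 514 passed, with 1116 in DESeq2, 260 in limma-trend, 263 with no filter, 1383 in females, 7 in males and 133 to 983 without 1 mouse. The interaction of genotype and UV passed for 119 genes, with 841 in DESeq2, 55 with no filter, 12 in females, 6 in males and 56 to 346 without 1 mouse. The sex difference after UV passed for 471 genes, with 1196 in DESeq2, 239 with no filter and 117 to 1043 without 1 mouse. The sex-by-UV interaction passed for 0, with 22 in DESeq2, 2 in limma-trend and 0 to 1 without 1 mouse. The cause of these moves was not tested.

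The calls of Hmga2 and Igf2bp1 for UV in KO mice were made under every alternative run, though Hmga2 entered the filtered fits only through its UV-exposed mice. Without 1 mouse, their adjusted P values reached at most 2.34e-14 and 3.44e-05. The WT change of Igf2bp2, 0.14 on the log2 scale, became -0.029 without UV-exposed male 71M and ranged up to 0.32 without another mouse. That of H19, 0.24, became -0.87 in females alone, -3.25 in limma-trend, -2.45 without female 59F and -2.22 without male 38M. It ranged up to 0.69 without another mouse, and from -3.25 to 1.43 over all alternatives. No paired analysis was possible because the numbers name single animals and no pair of the 8 groups has more than 1 number in common. Depth limits Igf2bp3 and Lin28b, at 10 and 6 reads over all mice.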
